A study of Mus musculus with 12 samples.

Results

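The 10 core circadian clock genes *Per1*, *Per2*, *Per3*, *Cry1*, *Cry2*, *Arntl*, *Clock*, *Nr1d1*, *Nr1d2* and *Dbp* were followed in follicular B cells, the main recirculating mature B cells of the spleen, with and without the lysophosphatidylserine receptor GPR174. The genes were chosen by name, with earlier results of these libraries known. All 10 had a row in the count tables of both time points, among 12837 genes that were in both. The cells (CD21/35- CD23+) were sorted from spleens of adult male mice that were either Gpr174+/Y (WT) or Gpr174-/Y (KO). The KO mice carry a tdTomato reporter allele and lack GPR174 in all cells. In these libraries, effects of the loss within the B cell and through other cells of the mouse cannot be told apart. For the CD86 protein, the study reports an effect within the B cell, from reporter-positive and reporter-negative cells of heterozygous females. The clock genes were not examined in that way. Cells were frozen after the sort (0 h) or cultured for 4 h in complete RPMI medium with fetal bovine serum, with nothing added to stimulate them. There were 3 libraries of each genotype at each time, 12 in all, and 3 mice were used per genotype. The sources used here do not give the hour of day of the sort or say whether the 0 h and 4 h libraries with the same number came from the same mouse.

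In the mammalian clock, the transcription factors CLOCK and ARNTL (also called BMAL1) bind E-box sequences together and switch on the *Per*, *Cry*, *Nr1d* and *Dbp* genes. PER and CRY proteins return to block CLOCK and ARNTL, and the nuclear receptors NR1D1 and NR1D2 (REV-ERB alpha and beta) repress *Arntl*. DBP is an output factor that binds D-box sequences. *Per1* can also be switched on directly by cAMP through CREB and by glucocorticoid hormone, which is how signals from outside the cell reset the loop. Lymphocytes, like most cells, carry this clock. GPR174 signals through the G protein Gs, which raises cAMP.

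Of the 10 genes, *Per1* was the only one called different between the genotypes, at 4 h and not at 0 h. Over all genes, 10.9% were called at 4 h and 0.987% at 0 h, so 1 of 10 at 4 h is close to the share of all genes. *Per1* was 1.63-fold higher in WT than in KO at 4 h. *Per2* fell in culture in both genotypes, by more than any other clock gene. *Nr1d2* and *Cry1* rose in both. *Arntl*, *Clock*, *Cry2*, *Per3*, *Nr1d1* and *Dbp* did not pass the test in any of the 5 comparisons.

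Since *Per1* alone was called between the genotypes, its promoters are shown beside that of *Cry1*, which rose in culture in both genotypes. The RefSeq promoter windows (GRCm38.p6, 250 bases before to 50 after an annotated start site) covered 9 of the 10 genes with 13 windows, and *Per2* had no entry. Windows of a gene with several start sites can overlap, as the pair of *Arntl* does. Capitals mark the E-box CACGTG, its variant CACGTT and TGACG, the core of the cAMP response element (CRE), each searched on both strands. *Per1* has 2 windows, on the plus strand at chr11:69098699-69098998 (upstream) and chr11:69099902-69100201 (downstream), and *Cry1* has 1, on the minus strand at chr10:85185005-85185304.
Per1 upstream: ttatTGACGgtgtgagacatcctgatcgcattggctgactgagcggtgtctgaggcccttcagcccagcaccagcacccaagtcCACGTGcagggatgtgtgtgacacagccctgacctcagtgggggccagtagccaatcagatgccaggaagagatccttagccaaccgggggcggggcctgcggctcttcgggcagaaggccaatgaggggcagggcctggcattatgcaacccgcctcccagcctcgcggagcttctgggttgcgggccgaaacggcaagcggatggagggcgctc
Per1 downstream: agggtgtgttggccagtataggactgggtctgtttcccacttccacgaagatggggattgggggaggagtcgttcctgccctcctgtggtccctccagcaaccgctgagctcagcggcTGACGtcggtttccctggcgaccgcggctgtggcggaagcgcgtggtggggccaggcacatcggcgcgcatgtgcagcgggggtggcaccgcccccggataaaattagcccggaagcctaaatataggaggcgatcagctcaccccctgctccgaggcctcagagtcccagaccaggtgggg
Cry1: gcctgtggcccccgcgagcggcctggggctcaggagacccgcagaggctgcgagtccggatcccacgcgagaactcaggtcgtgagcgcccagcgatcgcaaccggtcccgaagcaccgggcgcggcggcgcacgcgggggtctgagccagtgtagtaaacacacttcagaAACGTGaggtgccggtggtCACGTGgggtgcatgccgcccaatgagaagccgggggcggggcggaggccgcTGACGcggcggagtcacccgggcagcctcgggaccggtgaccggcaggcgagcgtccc

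Counting from the start site, the upstream *Per1* window held CACGTG from position -166 and TGACG from -246. The downstream *Per1* window held TGACG from -132. The *Cry1* window held CACGTG from -60, CACGTT on the other strand from -79 and TGACG from -8. TGACG, which is also part of the full CRE, was found in 4 of the 13 clock gene windows (both *Per1* windows, *Cry1* and *Cry2*) and in 20.8% of all 32851 windows of the same length. The full CRE TGACGTCA was in 0 of the 13 and in 1.79% of all windows. CACGTG was in 2 of the 13 (7.15% of all) and CACGTT in 3 (4.68% of all), the latter in *Cry1*, *Cry2* and *Nr1d1*. The D-box TTATGTAA was found only in the *Per3* window, at 2 places, against 0.938% of all windows. AGGTCA, the core bound by NR1D receptors, was in 4 of the 13 (*Per1* upstream, *Arntl*, *Clock* and *Nr1d2*) and in 16.3% of all. These matches describe letters in short windows, and binding was not measured.

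Libraries held 6098941 to 11618787 counts. Levels are in CPM, the counts divided by library size and scaled to a common total, with library sizes scaled by TMM. Each ± is a standard deviation over 3 libraries for a level and a standard error for a log2 fold change. *Gpr174* itself was at 149.5 to 169 CPM in WT and 73.4 to 118 CPM in KO libraries, with no overlap, in the direction of the labels. The KO allele replaces its single coding exon, and counts per gene do not show where the reads left in KO lie. The 7 of 8 B cell markers with a row summed to 5746 to 8793 CPM, the 7 of 8 T cell markers to 17.7 to 35.2, the 3 of 6 neutrophil markers to 18.6 to 107 and the 3 of 6 erythroid markers to 637 to 2351 CPM. The B cell sum was the highest of these in every library. Of 9 macrophage markers, 6 had a row at both times. Their sum was 50.8 to 64.1 CPM at 0 h and 25.2 to 38.3 CPM at 4 h, and *C1qa*, *C1qb* and *C1qc* had a row at 0 h only. Among these 6, *Vcam1*, *Csf1r* and *Hmox1* fell in both genotypes, *Emr1* rose in KO and *Cd68* and *Spic* were not called. Other sums also moved with culture without overlap. That of the B cell markers went from a range of 8339 to 8793 CPM down to one of 5746 to 6016 in WT, and from 8032 to 8374 down to 7116 to 7307 in KO. The 5 plasma cell markers summed to 439.96 to 495 CPM before and 519 to 571 after culture in WT. Most of this sum was *Irf4*, at 343 to 369 CPM before and 409 to 475 after. Of the 5, 3 were called as rising in WT and 1, *Xbp1*, as falling. The part of these shifts in the culture changes of the clock genes was not tested. In bulk RNA, fewer cells of a type and less RNA per cell cannot be told apart.

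Per kilobase of exon, *Per1* was the most abundant clock gene in freshly sorted cells. In WT 0 h it stood at 13.5 ± 0.867 CPM per kb, above *Cry1* at 8.79 ± 0.86. *Nr1d2* (5.42 ± 0.617), *Clock* (4.91 ± 0.457), *Cry2* (4.60 ± 0.281) and *Arntl* (4.48 ± 0.0774 CPM per kb) followed, and neighbours in this order overlapped. Below them came *Per2* (3.53 ± 0.378) and *Per3* (1.49 ± 0.132 CPM per kb), which overlapped no neighbour but *Dbp*. *Dbp* (1.07 ± 0.507) and *Nr1d1* (0.625 ± 0.17 CPM per kb) were lowest, and these overlapped. They were counted at 14 to 44 and 9 to 29 reads per library, so only large changes could be resolved in them. After culture the WT order was the same except at its lower end, where *Per3* (1.62 ± 0.102 CPM per kb) stood above *Per2* (1.33 ± 0.222) and *Nr1d1* (0.986 ± 0.119) above *Dbp* (0.865 ± 0.12). All cultured WT libraries of *Per3* lay above those of *Per2*, while *Nr1d1* and *Dbp* overlapped. In cultured KO libraries *Per1* (11.03 ± 0.412 CPM per kb) and *Cry1* (10.3 ± 0.604) overlapped, which they did in no other group. Exon lengths were those of GENCODE M21, and the annotation used for counting was not stated. In GENCODE M21, *Dbp* overlaps *Sphk2* (18.0% of its exonic bases), *Nr1d1* overlaps *Thra* (8.5%) and *Cry2* overlaps *D930015M05Rik* (4.7%), all on the opposite strand. The strand setting of the counting is not given, so how reads in these overlaps were assigned is not known.

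**Figure D1:**
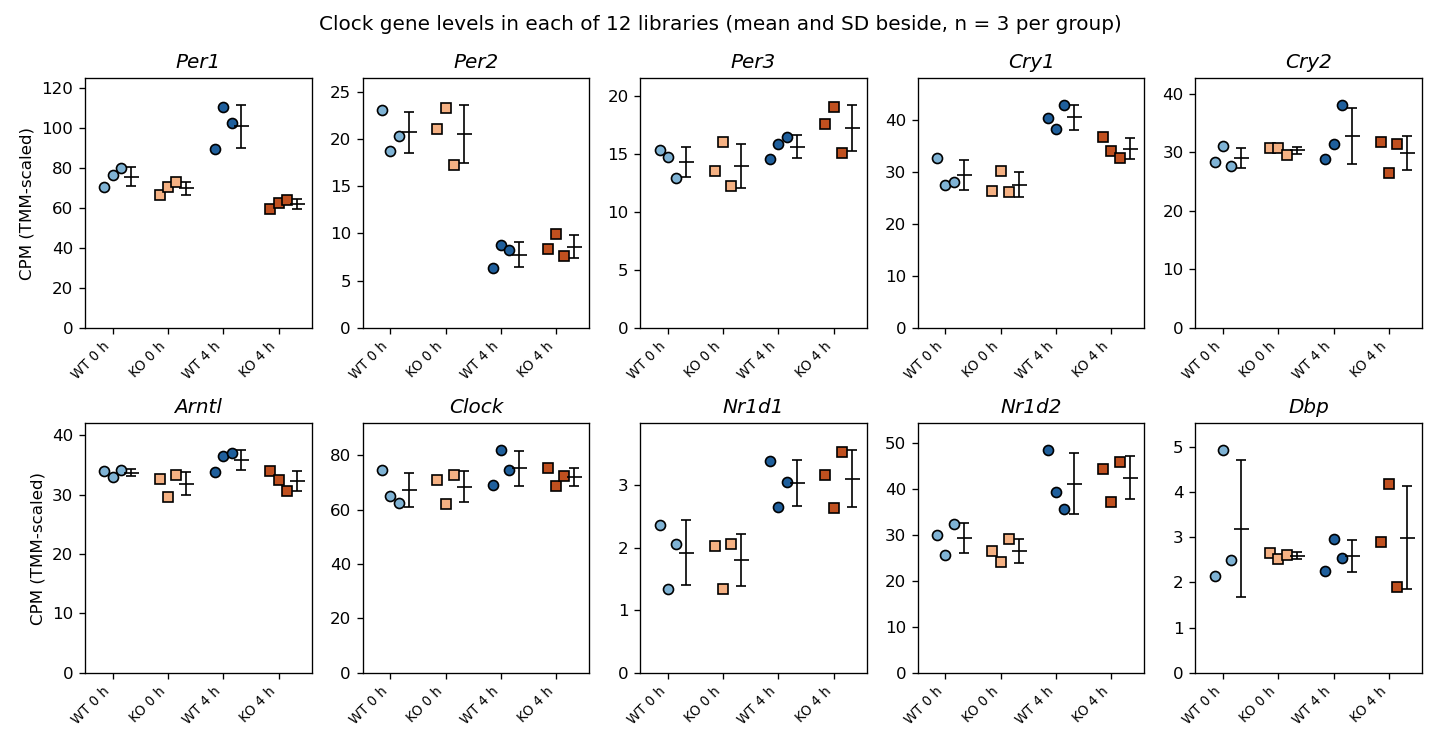
Levels of the 10 clock genes in CPM (y axis, from 0, a separate scale for each gene) in the 12 libraries, by group (x axis, 3 points per group in the order of replicate numbers). Bars beside the points are mean and SD (n = 3). *Per1* is highest in the WT 4 h libraries, and *Per2* is lower in all 4 h libraries than in all 0 h libraries.

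The genotype contrast at 0 h asked whether the clock differed before culture. None of the 10 genes was called at an edgeR adjusted p under 0.05 (0 also with DESeq2, and 0 at an unadjusted p under 0.05), where 0.987% of the 11345 genes tested were called. WT and KO libraries overlapped in all 10, while they did not overlap in 18.1% of all genes. Log2 fold changes (WT over KO) ran from -0.07 for *Cry2* to 0.28 for *Dbp*, with a median of 0.07 against 0.00026 over all genes. The interval of ± 2 standard errors was -0.04 to 0.26 for *Per1*, -0.28 to 0.29 for *Per2*, -0.13 to 0.27 for *Arntl* and -0.21 to 0.14 for *Clock*. It was much wider for *Nr1d1* (-0.71 to 0.86) and *Dbp* (-0.46 to 1.02).

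At 4 h, 1 of the 10 genes was called, where 10.9% of 11123 genes were. *Per1* (mm10, chromosome 11, 69095217 to 69109960, plus strand) encodes a period protein, and is an early target of outside signals. Its level in freshly sorted replicates 1 to 3 was 70.5, 76.7 and 80.1 CPM in WT and 66.6, 70.4 and 72.9 CPM in KO. After culture it was 89.6, 110.7 and 102.6 CPM in WT and 59.7, 62.4 and 64.3 CPM in KO. The genotypes thus overlapped at 0 h and were apart at 4 h, where the lowest WT library lay above the highest KO library. WT exceeded KO by 0.70 ± 0.08 on the log2 scale (edgeR, adjusted p = 2.6e-05), and 262 of the genes tested had a larger value. It was 0.63 to 0.77 when any library was left out, and was called in each of these 6 fits. The libraries of the genotypes also did not overlap in 2 marker sums at this time. The B cell markers summed to 5746 to 6016 CPM in WT and 7116 to 7307 in KO, and the 5 plasma cell markers (*Xbp1*, *Irf4*, *Prdm1*, *Sdc1* and *Igj*) to 519 to 571 CPM in WT and 443 to 478 in KO. Most of the plasma cell sum was *Irf4*, at 409 to 475 CPM in WT and 366 to 382 in KO. It was the only 1 of the 5 called at 4 h (edgeR, adjusted p = 0.0344), and *Igj* was at 0.05 ± 0.37 (log2). The share of counts in *Rn45s*, the ribosomal RNA precursor, did not overlap either, at 7.78 to 11.2% in WT and 6.65 to 7.59% in KO. The part of these values in the *Per1* difference was not tested.

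The 9 other clock genes were not called at 4 h. Estimates were above 0 for 4 of them and below 0 for 5. *Cry1* came nearest, with 40.3, 38.2 and 42.8 CPM in WT against 36.6, 34.1 and 32.6 CPM in KO. Its libraries did not overlap, as in 27.9% of all genes, and WT exceeded KO by 0.24 ± 0.09 on the log2 scale (edgeR, adjusted p = 0.133). The intervals were -0.54 to 0.25 for *Per2*, -0.41 to 0.13 for *Per3*, -0.09 to 0.39 for *Cry2*, -0.04 to 0.34 for *Arntl*, -0.10 to 0.22 for *Clock* and -0.29 to 0.18 for *Nr1d2*. The interval of *Nr1d1* was -0.60 to 0.54 and that of *Dbp* -0.90 to 0.45. The upper ends of all 9 intervals lay below the value of *Per1* (0.70), whose own interval was 0.539 to 0.866. That of *Nr1d1*, with its upper end at 0.542, reached into it. *Per1* was not tested against the other genes.

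**Figure D2:**
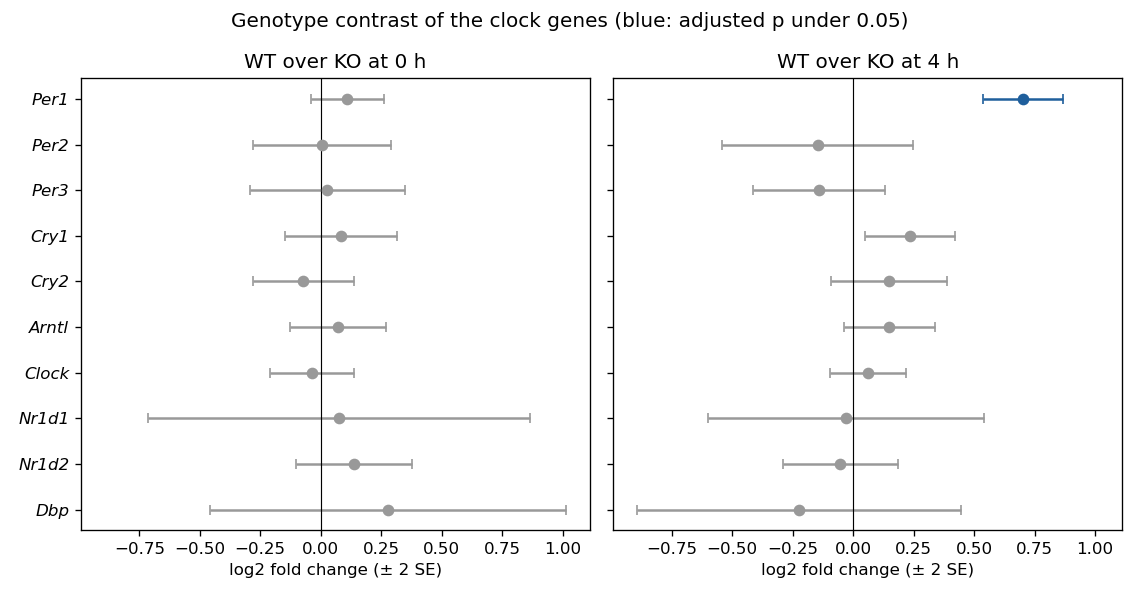
Log2 fold change of WT over KO (x axis, bars ± 2 SE) for the 10 clock genes at 0 h (left) and 4 h (right), 3 libraries per group, blue where called. *Per1* at 4 h (0.70) is the only gene called, and *Nr1d1* and *Dbp* have the widest bars.

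The culture contrasts asked how clock genes changed from 0 h to 4 h within a genotype. Culture and the passing of 4 h cannot be told apart in this design. In WT, 4 of the 10 genes were called, against 33.1% of 11572 genes. Of these, 3 rose (15.1% of all genes rose) and 1 fell (18.0%). In KO, 3 of the 10 were called, against 23.3% of all genes, with 2 that rose (10.3%) and 1 that fell (13.0%). These shares are close to those of all genes. Libraries of the 2 times did not overlap for 5 clock genes in WT, as in 40.9% of all genes, and for 5 in KO, as in 41.9%. The median log2 fold change of the 10 was 0.17 in WT and 0.14 in KO, against 0.0048 and 0.0016 over all genes.

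*Per2* (mm10, chromosome 1, 91415982 to 91459324, minus strand), which encodes another period protein of the feedback arm, had the largest change of the 10. Freshly sorted cells had 23.1, 18.7 and 20.3 CPM in WT and 21.1, 23.3 and 17.2 CPM in KO. After culture it was at 6.29, 8.76 and 8.23 CPM in WT and at 8.30, 9.92 and 7.61 CPM in KO. Every 4 h library lay below every 0 h library, and the genotypes overlapped at both times. On the log2 scale the change was -1.40 ± 0.17 in WT (edgeR, adjusted p = 8.38e-07) and -1.25 ± 0.17 in KO (adjusted p = 7.3e-06). Lower values were found for 225 of 11572 genes in WT and 251 in KO. The interaction, that is the WT change minus the KO change, was -0.16 ± 0.24 (edgeR, adjusted p = 0.805), with an interval of -0.63 to 0.31.

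*Per1* changed otherwise than *Per2*. It rose by 0.41 ± 0.08 in WT on the log2 scale (edgeR, adjusted p = 0.000289). In KO the value was -0.17 ± 0.08 (edgeR, adjusted p = 0.147), and the 4 h libraries all lay below the 0 h libraries. The interaction was 0.58 ± 0.11 (edgeR, adjusted p = 0.00188), and *Per1* was the 1 clock gene of 10 in which it was called, against 6.39% of all genes. *Per1* was called in WT, and not in KO, in each of the 12 fits that left out 1 library. These include fits without a library of the other genotype, which enters a culture change only through the shared filter, scaling and estimate of spread.

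Ratios of counts within a library do not depend on how libraries are scaled. There were 24 comparisons of 6 such ratios, and with 3 libraries against 3 none can go below an exact p of 0.1, before or after correction. The log2 ratio of *Per1* to *Per2* counts before culture was 1.87 ± 0.23 in WT and 1.78 ± 0.26 in KO, and these overlapped. After culture it was 3.70 ± 0.10 in WT and 2.85 ± 0.21 in KO. All WT 4 h libraries lay above all KO 4 h libraries (exact permutation test, two-sided, p = 0.1, the smallest that 3 against 3 allows). The log2 ratio of *Per3* to *Per2* went from -0.53 ± 0.16 to 1.01 ± 0.18 in WT and from -0.56 ± 0.08 to 1.00 ± 0.07 in KO. At 4 h this ratio overlapped between the genotypes (exact permutation p = 0.9). That of *Per2* to *Arntl* at 4 h was -2.21 ± 0.18 in WT and -1.91 ± 0.18 in KO, without overlap (exact permutation p = 0.1), while that of *Per2* to *Clock* overlapped (p = 0.4, exact permutation test).

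**Figure D3:**
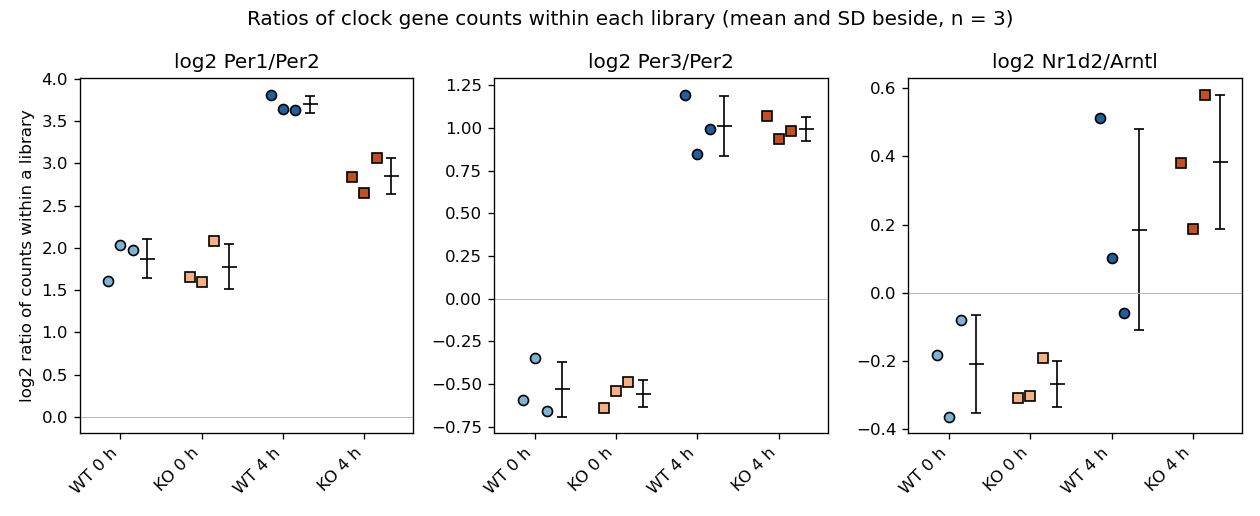
Log2 ratio of the counts of a pair of clock genes within each library (y axis) by group (x axis, 3 libraries each, mean and SD beside the points). The ratio of *Per1* to *Per2* is higher in WT 4 h (3.70) than in KO 4 h (2.85), that of *Per3* to *Per2* overlaps (1.01 and 1.00), and that of *Nr1d2* to *Arntl* overlaps too (0.19 and 0.38).

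*Per3*, the third period gene, was not called in any contrast. Its level before culture was 14.3 ± 1.28 CPM in WT and 13.9 ± 1.91 in KO, and after culture 15.6 ± 0.982 in WT and 17.2 ± 1.98 in KO. The change with culture was 0.13 ± 0.14 for WT and 0.31 ± 0.15 for KO (log2).

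Of the 4 other repressor genes, *Nr1d2* and *Cry1* rose. *Nr1d2* (mm10, chromosome 14, 18204054 to 18239127, minus strand) was at 30.0, 25.7 and 32.2 CPM in freshly sorted WT cells and at 26.4, 24.0 and 29.2 CPM in KO. At 4 h it was at 48.4, 39.3 and 35.5 CPM in WT and at 44.3, 37.1 and 45.8 CPM in KO. Every 4 h library lay above every 0 h library. It rose by 0.47 ± 0.12 in WT (log2, edgeR, adjusted p = 0.0048) and by 0.67 ± 0.13 in KO (adjusted p = 0.000417), with an interaction of -0.20 ± 0.18 (adjusted p = 0.643). Its relative *Nr1d1*, counted at few reads, had estimates of similar size, 0.65 ± 0.33 in WT and 0.76 ± 0.34 in KO. Levels ran from 1.35 to 2.37 CPM (WT) and 1.33 to 2.06 CPM (KO) before culture, and from 2.66 to 3.39 CPM (WT) and 2.63 to 3.53 CPM (KO) after it. The times did not overlap in either genotype, but neither change was called (edgeR, adjusted p = 0.134 and 0.11).

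*Cry1* (mm10, chromosome 10, 85131700 to 85185064, minus strand), which encodes a strong repressor of CLOCK and ARNTL, was at 32.7, 27.5 and 28.0 CPM in freshly sorted WT cells and at 26.3, 30.2 and 26.1 CPM in KO. All 4 h libraries, given above, exceeded those of the same genotype at 0 h. It rose by 0.47 ± 0.10 in WT (log2, edgeR, adjusted p = 0.00101) and by 0.32 ± 0.10 in KO (adjusted p = 0.0278), with an interaction of 0.14 ± 0.14 (adjusted p = 0.692). The call in KO was lost without KO 0 h replicate 1 (0.29, edgeR adjusted p 0.117) or 3 (0.29, 0.1) and without KO 4 h replicate 1 (0.28, 0.115) or 2 (0.33, 0.0615). *Cry2*, the second cryptochrome gene, had 0.19 ± 0.11 in WT and -0.02 ± 0.11 in KO. Levels were 29.0 ± 1.77 CPM (WT) and 30.3 ± 0.638 CPM (KO) before culture, and 32.8 ± 4.75 and 29.9 ± 2.91 CPM after it.

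The activator genes were not called in any contrast. *Arntl* was at 33.7 ± 0.581 CPM (WT) and 31.9 ± 1.98 CPM (KO) before culture, and at 35.8 ± 1.70 and 32.4 ± 1.71 CPM after it. *Clock* was at 67.4 ± 6.27, 68.5 ± 5.67, 75.2 ± 6.46 and 72.2 ± 3.25 CPM in the same order. Intervals of the culture change were -0.09 to 0.27 in WT and -0.17 to 0.21 in KO for *Arntl*, and -0.01 to 0.33 in WT and -0.10 to 0.24 in KO for *Clock*. *Dbp*, the output factor, was at 3.19 ± 1.52, 2.60 ± 0.0698, 2.59 ± 0.359 and 2.99 ± 1.14 CPM, with replicate 2 of fresh WT at 4.93 CPM, against 2.14 and 2.50 CPM in the other two. The change in *Dbp* was -0.29 ± 0.36 in WT and 0.22 ± 0.37 in KO. Centred over the 12 libraries, *Arntl* and *Clock* had the smallest distance of any pair of clock genes (root mean square 0.0927 on the log2 scale). *Per2* and *Nr1d1* had the largest (1.04). Genes that change little lie close by this measure, so the small distance of *Arntl* and *Clock* does not show a shared pattern of change.

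**Figure D4:**
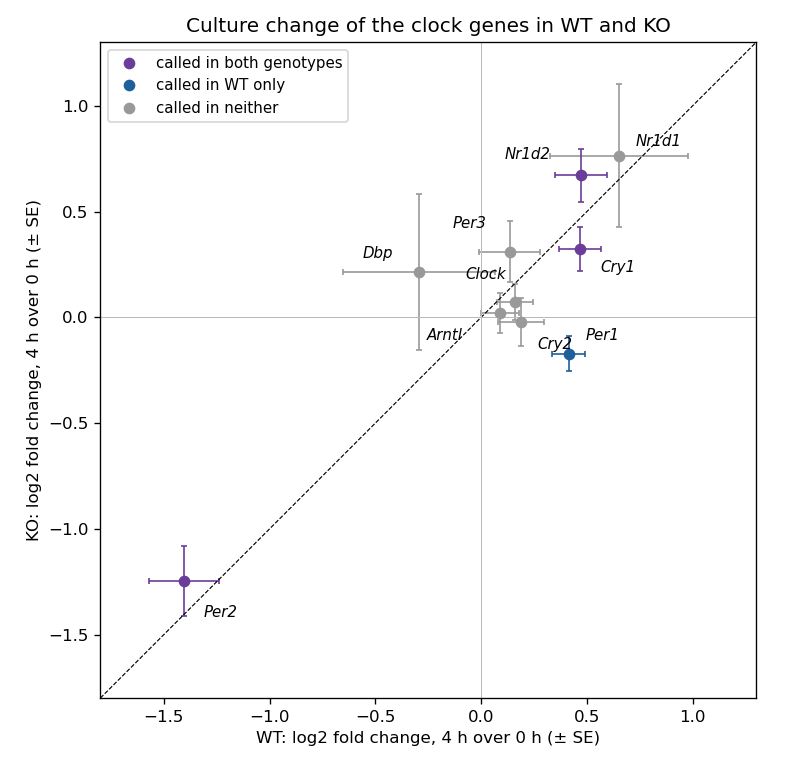
Log2 fold change from 0 h to 4 h in WT (x axis) and KO (y axis) for the 10 clock genes, with bars of 1 SE. The dashed line marks equal change. *Per2* lies far down the line (-1.40 and -1.25), and *Per1* lies below and to the right of it (0.41 and -0.17).

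Among all genes tested, those whose centred log2 CPM over the 12 libraries was nearest to *Per1* were *Tmem123* (root mean square distance 0.0818), *Mef2d* (0.0931) and *Pisd-ps1* (0.109), against a median distance of 0.338 over all genes. *Ralgds* (0.147), *Plaur* (0.159) and *Cd97* (0.16) were nearest to *Per2* (median 0.71). *Zfp963* (0.0535), *Tinf2* (0.0713) and *Zfp369* (0.0779) were nearest to *Cry1* (median 0.305). *Lcmt2* (0.0911), *Wbscr16* (0.099) and *Pmm1* (0.13) were nearest to *Nr1d2* (median 0.381). These distances describe the libraries and imply no shared control.

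A wider list of 33 clock-related genes held 29 with a row at both times, *Gm129* (now *Ciart*) among them. *Npas2*, *Arntl2*, *Rora* and *Hlf* had no row at either time, under these symbols or a synonym. Rows were limited to genes with at least 10 reads over the 6 libraries of a time. At 0 h, 0 of the 29 were called by edgeR and 0 by DESeq2, with 5 at an unadjusted p under 0.05, against 0.987% of all genes called by edgeR. In culture, 7 rose and 1 fell in WT, and 4 rose and 1 fell in KO. The 8 of 29 called in WT and 5 of 29 in KO stand against 33.1% and 23.3% of all genes. Between the genotypes at 4 h, 1 was called, higher in WT, against 10.9% of all genes. The interaction was called for 0 by edgeR and 0 by DESeq2, with 3 at an unadjusted p under 0.05, against 6.39% of all genes called by edgeR.

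*Bhlhe40*, which encodes a repressor that competes at E-boxes, was the gene higher in WT at 4 h. Cultured cells had 42.9, 34.1 and 41.1 CPM in WT and 27.7, 28.0 and 31.8 CPM in KO, a difference of 0.44 ± 0.11 (log2, edgeR, adjusted p = 0.016). It fell in KO, by 0.43 on the log2 scale (edgeR, adjusted p = 0.00474), and changed by -0.07 ± 0.10 in WT. The interaction was not called (0.36 ± 0.15, edgeR, adjusted p = 0.18). The 4 h call was lost without WT 4 h replicate 1 (0.37, edgeR adjusted p 0.0593) or 3 (0.40, 0.0698) and without KO 4 h replicate 1 (0.40, 0.078) or 2 (0.41, 0.0752).

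Of the 8 genes of the wider list called in WT culture, *Btrc*, *Cul4a* and *Kdm5a* were called in every fit that left out 1 of the 12 libraries. *Btrc*, an F-box protein that targets PER, rose by 0.53 ± 0.11 (log2), the ubiquitin ligase subunit *Cul4a* by 0.34 ± 0.08 and the chromatin protein *Kdm5a* by 0.27 ± 0.05. The casein kinase genes *Csnk1e* and *Csnk1d* were called at 0.46 ± 0.14 and 0.19 ± 0.06, and each lost its call in 3 of the 12 fits. *Csnk1e* lost it without WT 0 h replicate 2 or WT 4 h replicate 1 or 3, and *Csnk1d* without WT 0 h replicate 1 or 2 or WT 4 h replicate 2. Other kinase and ligase genes of the list were not called in WT, with -0.10 ± 0.06 for *Csnk1a1*, -0.10 ± 0.06 for *Gsk3b*, -0.06 ± 0.08 for *Fbxw11* and 0.56 ± 0.47 for *Fbxl21*. The calls of *Crebbp* (0.15 ± 0.05) and *Timeless* (0.38 ± 0.14) were each lost in 4 of the 12 fits and with only the 6 WT libraries, and *Timeless* was at 0.18 without WT 0 h replicate 2. That of *Sfpq* (-0.14 ± 0.05, edgeR, adjusted p = 0.0442) was lost in 9 of the 12, with only the 6 WT libraries and with library totals only (-0.03), and it was at -0.09 without WT 0 h replicate 2.

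In KO, *Csnk1d* (0.21 ± 0.06), *Cul4a* (0.27 ± 0.08), *Kdm5a* (0.16 ± 0.05) and *Crebbp* (0.20 ± 0.05) were called. The first 3 each lost the call in 3 of the 12 fits and *Crebbp* in 2, all of them fits without a KO library. The interaction was not called for any of these genes.

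**Figure D5:**
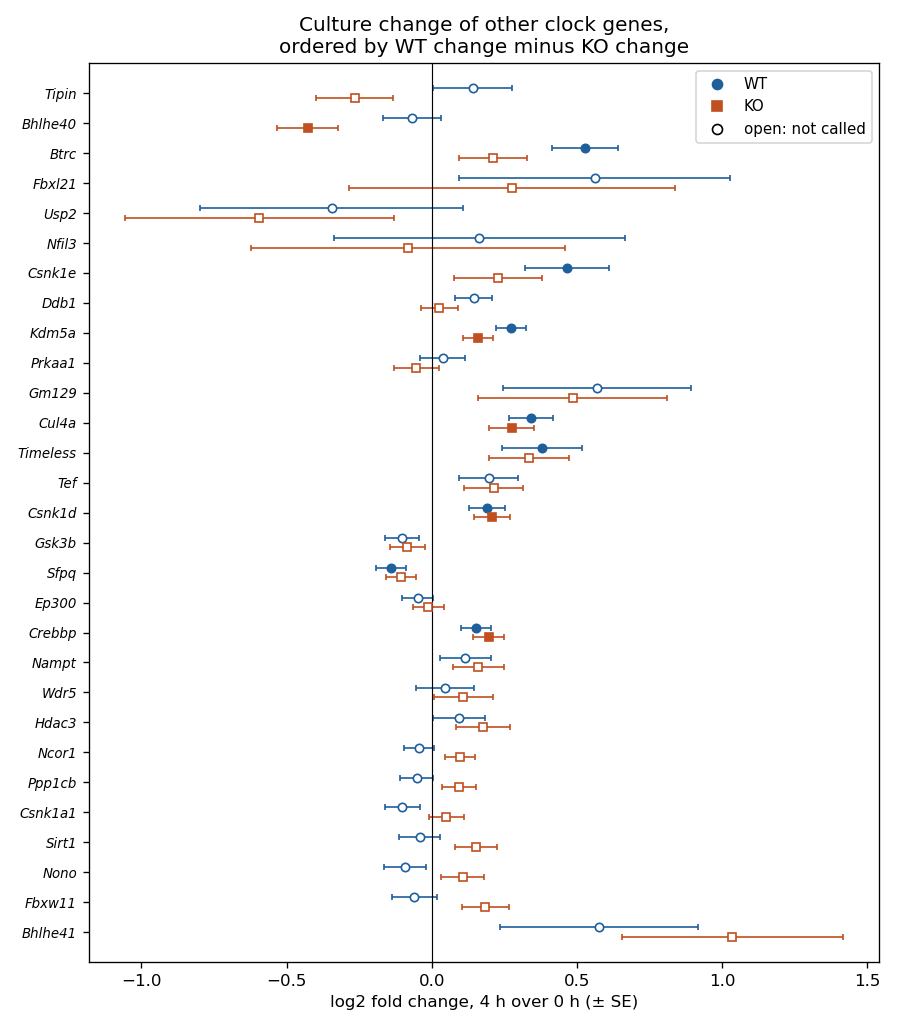
Log2 fold change from 0 h to 4 h (x axis, bars of 1 SE) in WT and KO for the 29 further clock-related genes (y axis), ordered by the WT change minus the KO change. Filled symbols were called, and *Btrc* is filled in WT (0.53) while *Bhlhe40* is filled in KO (-0.43).

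For comparison, 14 genes known to be induced by cAMP, *Per1* among them, were chosen with earlier results of these libraries known. Of these, 13 were called at 4 h, all higher in WT, against 10.9% of all genes called, with a median log2 fold change of 1.59 over the 14. The gene not called was *Ppargc1a*, which was lower in WT (-0.44 ± 0.14, log2, edgeR, adjusted p = 0.06). With all 12 libraries in 1 fit, which left out a listed gene without a row at 0 h, 12 were called higher and 1 lower. *Crem* (3.04), *Sik1* (2.25) and *Nr4a1* (0.88) were all above *Per1* (0.70), and *Pde4b* (0.51) was below it. Of the 13 with a row at both times, 10 rose and 2 fell in WT culture, against 15.1% and 18.0% of all genes. In KO culture 5 rose and 3 fell, against 10.3% and 13.0% of all genes. The interaction was called for 9 of the 13, all above 0, against 6.39% of all genes. The list is not independent evidence of its direction.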

How the data were processed

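RNA sequencing of 12 libraries of sorted follicular B cells was analysed. Per the labels and the study's methods, the authors prepared libraries with the Ovation RNA-seq System V2 and KAPA Hyper kits, aligned single-end reads to mm10 with STAR and counted reads per gene with HTSeq. Versions, annotation and strand setting are not given in the sources used here. The deposited values are raw counts, 1 table per time point, limited to genes with at least 10 reads over its 6 libraries. No column was left unmapped.

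Counts were filtered with filterByExpr, scaled by TMM and tested with edgeR 4.0.16 (glmQLFit and glmQLFTest, R 4.3.3) across all genes. The call threshold was 0.05 on Benjamini-Hochberg adjusted values. Genotype contrasts used the 6 libraries of that time. Culture contrasts and the interaction used all 12 over genes in both tables. The script was tested on simulated data. Alternatives were DESeq2 1.42.0, other scaling, no filter, other samples in the fit, a replicate block and leaving out each library. Ratios within a library added 0.5 to each count. Profile distances used log2 CPM with a prior count of 2. Exon lengths are from GENCODE M21 (GRCm38, the build of mm10).

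All 10 clock genes were named, with called genes of the wider list, up to 4 called genes of the cAMP and glucocorticoid lists, and the 3 genes nearest in profile to each called clock gene. The members and lists were chosen with earlier results of these data known. P-values measure the spread between these libraries, and no molecular identifiers were used. Some genes of the wider list are not reported here.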

Additional observations from a re-analysis of the deposited data

Results flagged for a closer look

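Only the clock genes, the wider list and the glucocorticoid list were searched here, for a culture change that differed between genotypes by the test of the difference itself. That test called 6.39% of all genes. Called on these lists were *Per1* (0.58 on the log2 scale, WT change minus KO change, edgeR, adjusted p = 0.00188) and *Bcl6* (-0.70, edgeR, adjusted p = 4.73e-05). *Bcl6* is a transcriptional repressor on the list of glucocorticoid-induced genes. *Bcl6* was at 202.9 to 241 CPM in WT 0 h and 120.4 to 130.4 CPM in WT 4 h, and at 206.5 to 212.7 CPM in KO 0 h and 182 to 208 CPM in KO 4 h. Groups of 3 libraries were too small to look for single outlying libraries.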

How the results depend on the processing

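The counts of clock genes called were the same under every alternative at 0 h (0), at 4 h (1) and in the interaction (1), and *Per1* was the gene called at 4 h and in the interaction. They ran from 4 to 6 in WT culture and from 2 to 4 in KO culture. Library totals without composition scaling shifted the median over all genes to 0.11 (log2) in WT culture and 0.09 in KO culture. With them *Cry2* (0.30) and *Clock* (0.27) were called in WT and *Per3* (0.40) in KO, 15 in place of 5 genes of the wider list were called in KO, and *Cry2* in KO became 0.067. All genes then split into 3001 raised and 1500 lowered in WT, against 1750 and 2080, and 2168 and 1101 in KO, against 1193 and 1504. *Per2* (-0.027) and *Per3* (-0.0035) at 0 h also changed sign. Leaving out single libraries gave 0 to 1 genes of the wider list at 0 h (1 without WT replicate 1), 0 to 3 at 4 h (0 without WT replicate 1 or KO replicate 1 or 2, 3 without WT replicate 2), 4 to 8 in WT culture (4 without WT 0 h replicate 2, 5 without WT 4 h replicate 1, 2 or 3, against 8) and 2 to 6 in KO culture (2 without KO 0 h or 4 h replicate 1, 3 without KO 4 h replicate 2). With only the 6 WT libraries in the fit, 5 were called in WT culture. Over all genes it gave 26 to 161 calls at 0 h (26 without KO replicate 1, 55 without KO replicate 3, 50 and 59 without WT replicates 2 and 3) and 776 to 1361 at 4 h (776 without KO replicate 1). *Clock* in WT culture was called without WT 0 h replicate 1 (0.24). Uncalled values near 0 that changed sign when a library was left out ran, at 0 h, from -0.11 to 0.10 for *Per2*, -0.058 to 0.14 for *Per3*, -0.11 to 0.016 for *Clock*, -0.088 to 0.27 for *Nr1d1* and -0.16 to 0.49 for *Dbp*. At 4 h they ran from -0.0024 to 0.11 for *Clock*, -0.14 to 0.071 for *Nr1d1*, -0.19 to 0.053 for *Nr1d2* and -0.46 to 0.11 for *Dbp*. In culture they ran from -0.50 to 0.15 for *Dbp* in WT, and in KO from -0.029 to 0.059 for *Arntl*, -0.069 to 0.059 for *Cry2* and -0.11 to 0.45 for *Dbp*. The interaction of *Nr1d1* ran from -0.30 to 0.054. Deviations of same-numbered 0 h and 4 h libraries had correlations of 0.126, 0.0718 and 0.117 for WT numbers 1, 2 and 3. The highest correlations with a different number of that genotype were -0.0479, -0.00407 and -0.0224. For KO numbers 1, 2 and 3 the same-number values were -0.0402, 0.145 and 0.152, against 0.0508, 0.00406 and 0.0224. Equal numbers thus gave the higher value except for KO number 1. The labels do not say whether equal numbers mark the same mouse, and the main fits did not pair them. A fit with the replicate number as a block called 0, 1, 4, 3 and 1 clock genes at 0 h, at 4 h, in WT culture, in KO culture and in the interaction, the same counts as without it, and 138, 1062, 3980, 2859 and 842 of all genes. The causes of these shifts were not tested.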

Other observations

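Glucocorticoid hormone is another input to *Per1*. Of 20 genes known to be induced by it, 16 could be tested in culture. In WT 7 fell and 2 rose, and in KO 7 fell and 1 rose, against 33.1% and 23.3% of all genes called. Between the genotypes at 4 h, 3 were called higher in WT and 1 lower, against 10.9% of all genes. *Tsc22d3*, a leading target of the glucocorticoid receptor, went from 540.7 to 597.7 CPM before culture to 159.4 to 193.9 CPM after it in WT libraries, and from 387 to 506 CPM to 128.03 to 147.5 CPM in KO libraries. On the log2 scale this was -1.71 ± 0.09 in WT (edgeR, adjusted p = 1.96e-12) and -1.70 ± 0.09 in KO (1.24e-11), with an interaction of -0.01 ± 0.12 (edgeR, adjusted p = 0.985). WT exceeded KO by 0.33 ± 0.08 at both times (edgeR, adjusted p = 0.0505 at 0 h and 0.0153 at 4 h). *Ddit4*, another target, had changes of -2.88 ± 0.15 and -2.52 ± 0.15 in WT and KO. These 2 genes had the largest falls of the list in WT, and the list did not fall as a whole there. Estimates were above 0 for 8 of the 16 in WT and for 3 in KO, with medians of -0.01 and -0.23 (log2). Besides *Per1*, the gene called as rising in WT was *Cdkn1a* (1.28 ± 0.33). *Per1*, on the same list, rose in WT and was not called in KO. Of the 6 macrophage markers, 3 fell in WT and 3 fell and 1 rose in KO over the same time, from -4.74 (*Vcam1*) to -0.15 (*Spic*) in WT and from -4.59 (*Vcam1*) to 1.13 (*Emr1*) in KO, and their part in these values was not tested.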
